A study of Mus musculus with 44 samples.

Results

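The heat shock and chaperone genes were taken as all genes whose symbols place them in the DNAJA, DNAJB, DNAJC, HSPA, HSPB, HSPD, HSPE, HSP90, HSPH, CCT or BAG families and whose mean over the 4 RNA-seq libraries was 10 normalized counts or more. Of 88 matching symbols, 79 passed and are called the members here, out of 12597 genes at that level in the whole table. The 9 others were too low, and 5 of them had no read in any library. The mean that chose the members is taken over both treatments, so it does not use the comparison of GDF9 with vehicle.

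Primary granulosa cells, the somatic cells that surround the oocyte, came from gonadotropin-primed female mice 3 to 4 weeks old on a mixed C57BL/6J and 129S5/SvEvBrd background and were kept in culture for 4 days. They were given mouse GDF9, a growth factor that oocytes secrete, at 100 ng/mL, or vehicle, for 4 h. RNA-seq was made from cells with PA-tagged SMAD3 (Smad3 PA/PA), with 2 libraries for GDF9 and 2 for vehicle. CUT&RUN, which maps proteins on chromatin by antibody-guided cutting, was made in Smad3 PA/PA cells and in cells with HA-tagged SMAD2 (Smad2 HA/+), with 2 libraries for each line, antibody and treatment. Both treatments of a line carry the same tag, no untagged line was analysed here, and the genotype of the RNA-seq cells is given in the study's methods rather than in the sample labels. For CUT&RUN the study describes pooled replicates of cells from 8 mice, without saying whether each replicate is its own pool. The origin of the RNA-seq replicates is not given. The p-values therefore measure the spread between libraries, which may be partly technical.

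Molecular chaperones bind unfolded proteins and help them fold, assemble, cross membranes or reach degradation. HSP70 proteins bind and release clients in a cycle that J-domain proteins (the DNAJ families) start and that HSP110 and BAG proteins help to reset, HSP90 matures signaling proteins, among them steroid receptors and kinases, and the barrel-shaped chaperonins HSP60 in mitochondria and CCT in the cytosol enclose their clients. In heat or other protein stress, the transcription factor HSF1 turns on many of these genes through heat shock elements, and stress in the endoplasmic reticulum turns on a separate set. Granulosa cells of large follicles make steroids and secrete proteins, and both compartments hold chaperones in them.

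The libraries held 8827825 to 11416005 reads in genes, and granulosa cell markers such as Foxl2 (745 to 834 normalized counts) and Inha (13383 to 14887) were well measured, whereas Amh and Cyp19a1, which also define the cell type, averaged only 1.49 and 2.00. The summed markers of endothelium (20.1 and 34.8 normalized counts with GDF9, against 37.9 and 39.9 with vehicle), macrophages and leukocytes (127 and 127, against 101 and 105) and oocytes (33.2 and 31.0, against 28.7 and 38.1) were low in every library. Those of stroma and fibroblasts summed to 1497 and 1484 with GDF9, against 1525 and 1495 with vehicle, mostly from Col1a1. Those of theca cells summed to 45965 and 46217, against 44435 and 45217, almost all from Cyp11a1, which granulosa cells also express, while the theca genes Cyp17a1 and Insl3 averaged 1.01 and 0. The nuclear RNAs Malat1 and Neat1 together had 31122 and 29246 normalized counts with GDF9, against 12406 and 12708 with vehicle, and the mitochondrially encoded genes had 363323 and 330962, against 253953 and 252213. The part of these differences in the results on the members was not tested, apart from a scaling without the mitochondrially encoded genes, which kept the call reported here. In bulk RNA, fewer cells of a type and less RNA per cell cannot be told apart.

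The shares of promoters with stress elements were larger among the members than among all genes. Sequences are printed for the members with the longer elements. Of the other members with a match, only Dnaja1, Dnajb4, Hspa1b and Hspa1a are printed. RefSeq promoter windows on GRCm38.p6, which run from 250 bases before to 50 bases after a transcript start, were found for 64 of the 79 members. The other 15, among them Hsp90aa1, Hsp90ab1, Hspa8 and Hspa9, had no window and were not searched for any element. A heat shock element was searched on both strands as 2 facing units, GAANNTTC or TTCNNGAA, and in a longer form as 3 such alternating units, which always contains the shorter form. The 3-unit form was in the windows of 4 of the 64 members (6.25%), against 0.662% of the 27025 genes in the promoter table, and the 2-unit form was in those of 18 (28.1%), against 17.0%. An endoplasmic reticulum stress element, CCAAT and CCACG with 9 bases between them, was in those of 3 members (4.69%), against 0.137% of all genes. The SMAD palindrome GTCTAGAC was in none of the 64, against 0.248% of all genes. These are matches of letters and not shown sites of binding. In the lines that follow, capitals mark the matched element.
Hspd1, chr1:55088051-55088079, minus strand, 3 units: gccttccgGAAGGTTCTAGAAcggaccgt
Hspe1, chr1:55088056-55088084, plus strand, 3 units: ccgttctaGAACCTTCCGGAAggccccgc
Hsph1, chr5:149636280-149636308, minus strand, 3 units: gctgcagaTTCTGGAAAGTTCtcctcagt
Dnajb6, chr5:29735844-29735872, plus strand, 3 units: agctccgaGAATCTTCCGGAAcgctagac
Dnaja1, chr4:40722333-40722362, plus strand, 2 units: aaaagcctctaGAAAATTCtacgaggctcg
Dnajb4, chr3:152193841-152193870, minus strand, 2 units: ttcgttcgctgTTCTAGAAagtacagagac
Hspa1b, chr17:34959324-34959353, minus strand, 2 units: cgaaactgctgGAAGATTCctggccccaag
Hspa1a, chr17:34972242-34972271, minus strand, 2 units: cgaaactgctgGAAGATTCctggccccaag
Hspa5, chr2:34772020-34772048, plus strand, stress element of the endoplasmic reticulum: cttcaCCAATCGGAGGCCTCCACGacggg
Hsp90b1, chr10:86705633-86705661, minus strand, stress element of the endoplasmic reticulum: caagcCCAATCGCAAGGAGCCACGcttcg
Dnajc3, chr14:118937822-118937850, plus strand, stress element of the endoplasmic reticulum: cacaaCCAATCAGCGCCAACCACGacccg

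Hspd1 and Hspe1 lie head to head, so the stretch shown for both is overlapping DNA read from opposite strands. Overlapping promoter windows on opposite strands were common among the members, in 19 of 64 (29.7%), against 11.9% of all genes in the table. Hspa1a and Hspa1b have the same bases in the stretch shown and are near-identical copies. How reads that match both were counted is not given, so their counts may not show their RNA levels. Exons of 15 members share bases with another gene, for example 96 bases between Hspd1 and Hspe1, and the strand setting of the read counting is not given in the sources used here. Exons of Dnaja1 share 74 bases with the microRNA gene Mir207 on the same strand.

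To ask whether GDF9 changed the RNA of the chaperones, each gene was tested with limma on log2(normalized count + 1), and a gene was called where the Benjamini-Hochberg adjusted p was under 0.05 and the log2 fold change beyond 0.18 in size, the limits the study used. A single member, Dnaja1, was called, and it fell. No member was called higher, and in limma 3 members were higher at an unadjusted p under 0.05, namely Dnajb13, Dnajc17 and, named after its values were seen, Dnajc5 (2202 and 2158 normalized counts with GDF9, against 2025 and 2064 with vehicle). Among all genes 3.14% were called, with 2.44% higher and 0.707% lower, so the 1 of 79 members called lower is close to the background. At an unadjusted p under 0.05, 12 of the 79 members were lower and 3 higher in limma. Among all genes 7.37% were lower and 8.27% higher, so the share of the members was larger for lower and smaller for higher. These shares were not adjusted for the level of the genes. Of the 2357 genes with a mean of 1000 or more, 401 were lower and 233 higher at that limit in limma. Of the 29 members at that level, 10 were lower and 1 higher. On the recovered reads, edgeR also called Dnaja1 lower (0.659% of all genes) and none higher (2.56%), while DESeq2 called no member lower (0.159%) or higher (0.897%), with 6 lower and 0 higher at an unadjusted p under 0.05.

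Dnaja1 encodes a J-domain protein of the cytosol that delivers clients to HSP70. It had 1976 and 1960.3 normalized counts in GDF9-treated cells, against 2209.6 and 2278 in vehicle-treated cells. Both GDF9 libraries lay below both vehicle libraries, and the GDF9 mean was 87.7% of the vehicle mean. The log2 fold change was -0.19 ± 0.04 (SE, n = 2 per group), with an adjusted p of 0.0100 in limma. The call did not hold with DESeq2 (adjusted p = 0.100), without a filter on low values (limma adjusted p = 0.0640), without vehicle replicate 1 (limma adjusted p = 0.0681) or without vehicle replicate 2 (limma adjusted p = 0.181), and the log2 fold change stayed between -0.21 and -0.17 over all 13 alternatives.

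**Figure D1:**
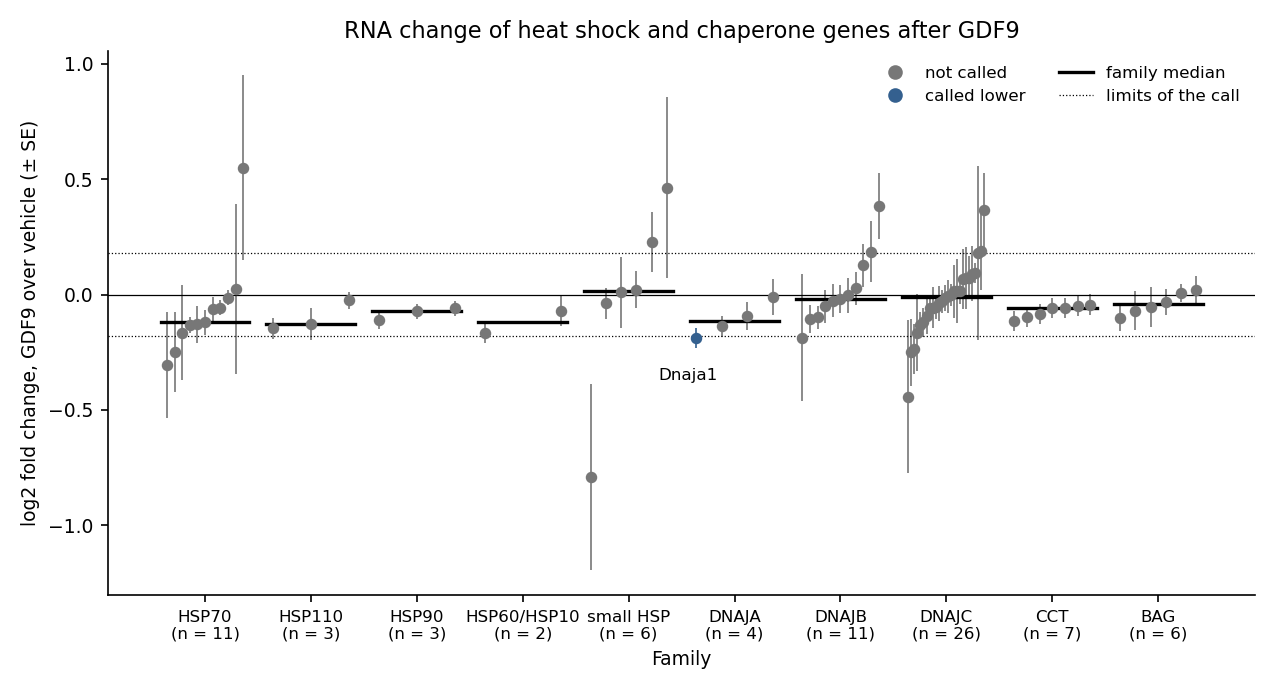
Log2 fold change of RNA, GDF9 over vehicle (vertical axis), of each of the 79 members with its standard error from limma, by family (horizontal axis), with the family median as a bar and the fold limits of the call as dotted lines. Dnaja1 at -0.19 is the called member, all members of the HSP110, HSP90, HSP60/HSP10, DNAJA and CCT families lie below 0 with all libraries, and the widest errors belong to members with few reads. With single libraries left out in turn, HSP90 alone among these families kept all its members below 0 each time.

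Hspd1 and Hspa9, which fold proteins in mitochondria, passed the adjusted p but stayed inside the fold limit, as part of the 1.01% of all genes with an adjusted p under 0.05 and a lower value. Hspd1, the mitochondrial chaperonin HSP60, had 3324 and 3571 normalized counts with GDF9, against 3879.5 and 3858 with vehicle. The groups did not overlap, with GDF9 replicate 1 the lowest library, and the log2 fold change was -0.17 ± 0.04 (limma adjusted p = 0.0151). Its limma adjusted p was 1.5e-05, with a call, without GDF9 replicate 2, and the highest over the alternatives was 0.203.

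Hspa9, the mitochondrial HSP70 also known as mortalin, had 5798 and 5799 normalized counts with GDF9, against 6409.6 and 6292 with vehicle. Here too both GDF9 libraries were below both vehicle libraries, and the log2 fold change was -0.13 ± 0.04 (limma adjusted p = 0.0311, up to 0.419 over the alternatives). Hspe1, the co-chaperonin HSP10 that caps HSP60, had 676 and 701 normalized counts with GDF9, against 688 and 763 with vehicle. Its groups overlapped (log2 fold change -0.07 ± 0.06, limma adjusted p = 0.646). Of the 10 members with mitochondrial proteins, 5 were below 0 and 5 above, none was called, and their median log2 fold change was -0.03.

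The cytosolic HSP90 and HSP70 genes included the most abundant of the members, and none of them was called. Hsp90aa1, the stress-inducible HSP90, had 6005 and 6284 normalized counts with GDF9, against 6664.5 and 6606 with vehicle. Both GDF9 libraries were lower, and the log2 fold change of -0.11 ± 0.04 missed the threshold (limma adjusted p = 0.0891). Hsp90ab1, the constitutive HSP90, had 20751 and 21561 normalized counts with GDF9, against 21802 and 22298 with vehicle. The groups were apart by a small margin, with a log2 fold change of -0.06 ± 0.03 (limma adjusted p = 0.360). Hspa8, the constitutive HSP70 of the cytosol, had 11198 and 11456 normalized counts with GDF9, against 11326 and 11554 with vehicle. Its groups overlapped, and the log2 fold change was -0.01 ± 0.03 (limma adjusted p = 0.890).

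The counts of the strictly inducible HSP70 copies were near the bottom of the range, with the limit on shared reads given above. Hspa1b had 39.3 and 32.9 normalized counts with GDF9, against 42.5 and 47.0 with vehicle, and Hspa1a had 13.1 and 15.5, against 13.8 and 14.2. Hspa1b was lower in both GDF9 libraries and Hspa1a overlapped, but at these counts the standard errors were 0.23 and 0.37 on the log2 scale and neither was called. Hspa1l, an HSP70 known mainly from testis, had 14.1 and 14.5 normalized counts with GDF9, against 9.19 and 9.75 with vehicle. The groups were apart with GDF9 higher, and the log2 fold change of 0.55 ± 0.40 did not pass the test (limma adjusted p = 0.558).

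The HSP110 genes encode proteins that exchange the nucleotide of HSP70. Hsph1, the inducible member, had 1877 and 1885 normalized counts with GDF9, against 2121 and 2045 with vehicle. Its groups did not overlap, and the log2 fold change was -0.15 ± 0.05, just short of the threshold (limma adjusted p = 0.0660). Hspa4l had 611 and 629.9 normalized counts with GDF9, against 725 and 634 with vehicle, so the groups were barely apart (limma adjusted p = 0.377). Hspa4, the most abundant of the family per kb, had 5136 and 5327 normalized counts with GDF9, against 5469 and 5182 with vehicle. Its groups overlapped (log2 fold change -0.03 ± 0.04).

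Of the 41 J-domain genes, Dnaja1 was the only one called in limma with all libraries. Dnaja2, its close relative in the cytosol, had 2019 and 2076 normalized counts with GDF9, against 2300.4 and 2208 with vehicle. GDF9 was lower in both libraries, with a log2 fold change of -0.14 ± 0.04 (limma adjusted p = 0.0867). Dnajb1, the main heat-inducible J-domain partner of HSP70, had 486 and 519.6 normalized counts with GDF9, against 489 and 497 with vehicle. The groups of Dnajb1 overlapped, and the log2 fold change was 0.03 ± 0.07. Dnajb4, a related HSF1 target with a 2-unit element shown above, had 768 and 769 normalized counts with GDF9, against 768 and 789 with vehicle, which overlapped as well.

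Among the J-domain genes the largest changes were at low levels. Dnajb13, best known from the radial spokes of sperm flagella and cilia, had 135 and 121 normalized counts with GDF9, against 93.0 and 103 with vehicle. Both GDF9 libraries were higher, with a log2 fold change of 0.38 ± 0.14 (limma adjusted p = 0.153). Dnajc17 had 88.6 and 95.8 normalized counts with GDF9, against 70.1 and 72.7 with vehicle, again without overlap (log2 fold change 0.36 ± 0.16, limma adjusted p = 0.264), and its exons share 76 bases with Zfyve19 on the opposite strand. Dnajc22 had 18.1 and 13.5 normalized counts with GDF9, against 24.1 and 19.5 with vehicle, and was lower in both GDF9 libraries (log2 fold change -0.44 ± 0.33, limma adjusted p = 0.570). Dnajb3, at 22.2 and 31.0 normalized counts with GDF9 against 29.9 and 30.1 with vehicle, overlapped. Dnajc8, a J-domain protein found in the spliceosome and the most abundant DNAJC member per kb, had 925 and 937 normalized counts with GDF9, against 1014 and 1028 with vehicle. Its groups were apart, and the log2 fold change was -0.13 ± 0.06 (limma adjusted p = 0.216). Over the 41 DNAJ genes, 26 were below 0 and 15 above, with a median log2 fold change of -0.02.

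The 7 CCT genes of the rule encode subunits of the cytosolic chaperonin that folds actin and tubulin, and with all libraries the 7 had log2 fold changes below 0, between -0.12 and -0.04, with none called. Without GDF9 replicate 1, 5 of the 7 were below 0, and Cct3 and Cct8 were above. Cct4 had 1957 and 1990.3 normalized counts with GDF9, against 2136 and 2141 with vehicle. Its groups did not overlap (log2 fold change -0.12 ± 0.04, limma adjusted p = 0.169). Cct7 had 2842 and 3044 normalized counts with GDF9, against 3144 and 3146 with vehicle, apart as well (log2 fold change -0.10 ± 0.04, limma adjusted p = 0.251). Its value was -0.05 without GDF9 replicate 1 (limma adjusted p = 0.713) and -0.15 without GDF9 replicate 2 (limma adjusted p = 0.0232), inside the fold limit. Cct2, the most abundant of them per kb, had 3208 and 3484 normalized counts with GDF9, against 3545 and 3426 with vehicle, and its groups overlapped. Tcp1, the remaining subunit, whose symbol the rule does not take, had 2760.3 and 2865 normalized counts with GDF9, against 2976 and 2974 with vehicle. It was lower in both GDF9 libraries, with a log2 fold change of -0.08 ± 0.04 (limma adjusted p = 0.345).

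No chaperone gene of the endoplasmic reticulum, where secreted proteins fold, was called. Hspa5, the HSP70 of this compartment known as BiP, had 12319 and 13048 normalized counts with GDF9, against 13323 and 13047 with vehicle. GDF9 replicate 2 lay between the vehicle libraries, so the groups overlapped (log2 fold change -0.06 ± 0.03, limma adjusted p = 0.441). Hsp90b1, the HSP90 of the same compartment, had 14350.3 and 14301 normalized counts with GDF9, against 15301 and 14840.3 with vehicle, without overlap (log2 fold change -0.07 ± 0.03, limma adjusted p = 0.251). Dnajb11, a J-domain partner of BiP, had 1870.1 and 2094 normalized counts with GDF9, against 2195 and 2048 with vehicle. Its groups overlapped, and it was called lower only without GDF9 replicate 2 (log2 fold change -0.18, limma adjusted p = 0.0108), against -0.10 ± 0.05 with all libraries and -0.02 without GDF9 replicate 1 (limma adjusted p = 0.931). Of the 13 members of this compartment, 12 were below 0, and their median was -0.06. Among all genes 52.1% were below 0, and among those with a mean of 1000 or more 61.9%. Groups were apart with GDF9 lower for 4 of the 13, against 23.2% of all genes, and with GDF9 higher for 1, Dnajb14, named after its values were seen (287 and 304 normalized counts with GDF9, against 263 and 278 with vehicle).

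The small heat shock proteins, which hold unfolded proteins without using ATP, and the BAG proteins, which release clients from HSP70, had no called member. Hspb1, the most abundant small one per kb, had 597 and 673 normalized counts with GDF9, against 656 and 647 with vehicle, and its groups overlapped. Hspb7 had 12.1 and 6.77 normalized counts with GDF9, against 16.1 and 16.8 with vehicle. Both GDF9 libraries were lower, but the log2 fold change of -0.79 ± 0.40, the lowest of the 79 members, did not pass the test (limma adjusted p = 0.345). Hspb2 had 13.1 and 17.4 normalized counts with GDF9, against 9.19 and 12.4 with vehicle (log2 fold change 0.46 ± 0.39), and its exons share 252 bases with the neighbouring gene Cryab on the opposite strand. Bag1 had 1073.5 and 1162 normalized counts with GDF9, against 1210.5 and 1190.0 with vehicle, lower in both GDF9 libraries (log2 fold change -0.10 ± 0.05, limma adjusted p = 0.361). Bag3, an HSF1 target that directs clients to autophagy, had 1073.5 and 1039 normalized counts with GDF9, against 1130.1 and 1031 with vehicle, and Bag5 had 379 and 466, against 442 and 440.4. The groups of Bag3 and Bag5 overlapped.

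**Figure D2:**
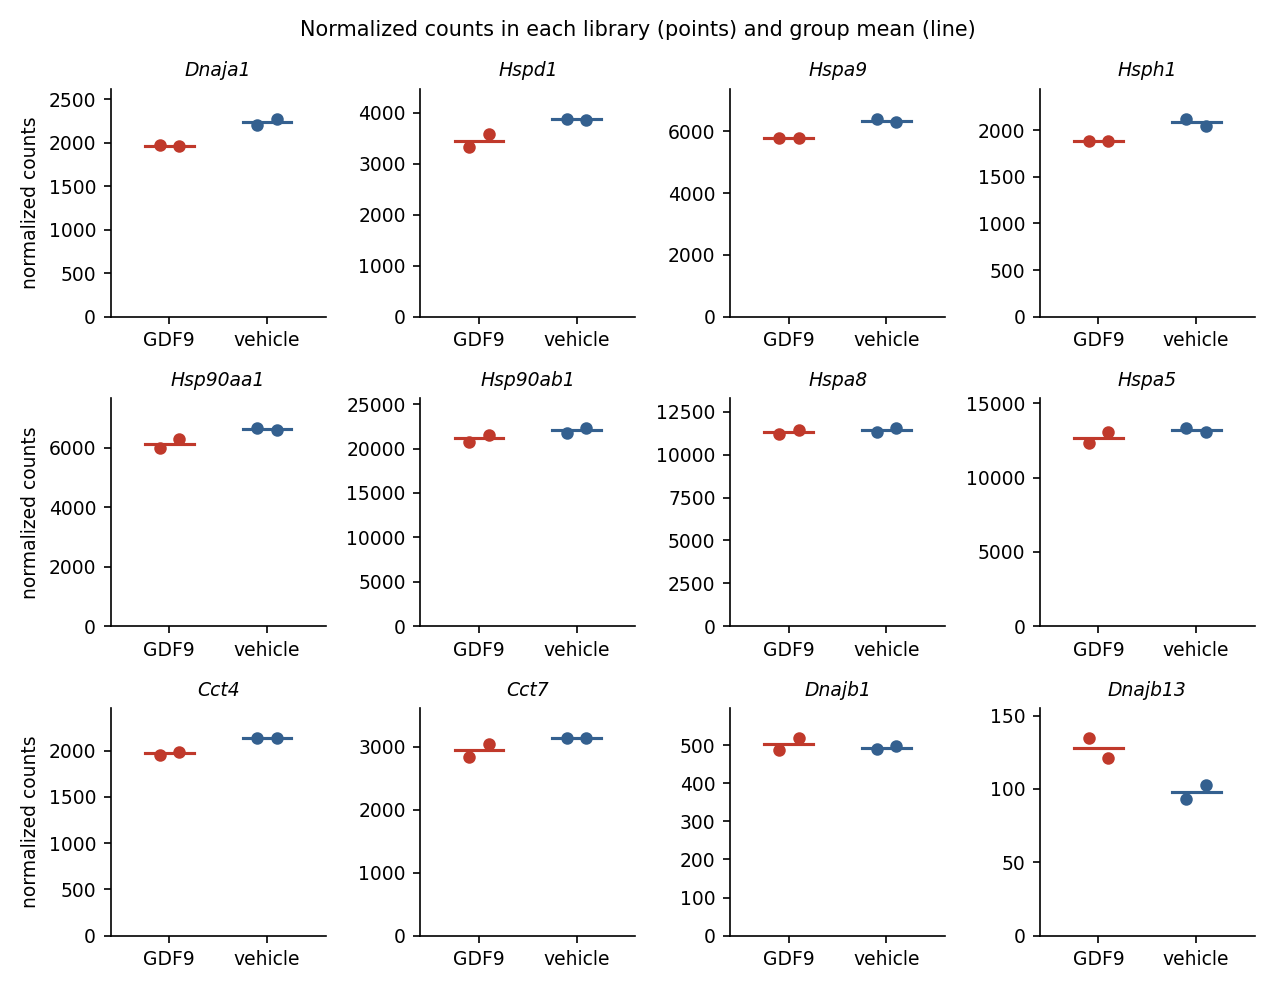
Normalized counts (vertical axis, from 0) of 12 members in each library, with GDF9 libraries on the left and vehicle libraries on the right of each panel, and the group mean as a line. Both points of GDF9 lie below both points of vehicle for Dnaja1, Hspd1, Hspa9, Hsph1, Hsp90aa1, Hsp90ab1, Cct4 and Cct7, above them for Dnajb13, and overlap them for Hspa8, Hspa5 and Dnajb1.

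Taking the members as a list, 56 of 79 (70.9%) had a log2 fold change below 0, against 52.1% of all genes tested, and the median was -0.05, against -0.01. Both GDF9 libraries were below both vehicle libraries for 29 members (36.7%), against 23.2% of all genes, and above them for 12 members (15.2%), against 22.0%. Of the 29 members with a mean of 1000 normalized counts or more, 27 were below 0 and 16 (55.2%) had groups apart with GDF9 lower, where 61.9% of all genes at that level were below 0 and 36.5% were apart in that direction. Of the 37 members with a mean from 100 to under 1000, 22 were below 0 (59.5%), against 51.9% of all genes at that level. Of the 13 members with a mean from 10 to under 100, 7 were below 0 (53.8%), against 44.8% of all genes at that level, with 5 apart lower and 5 apart higher (38.5% each), against 15.4% and 24.6%. Without GDF9 replicate 1, 22 of the 29 abundant members were below 0.

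The summed normalized counts of the 79 members were 138346 and 142676 with GDF9, against 147444 and 146118 with vehicle, which is 1.35% and 1.40% of all counts, against 1.45% and 1.44%. The 2 treatments did not overlap in this sum, and the GDF9 mean was 95.7% of the vehicle mean. By family, the GDF9 sum was 90.0% of the vehicle sum for HSP60/HSP10 and 90.6% for DNAJA, between 95.1% and 96.0% for HSP90, CCT, HSP110 and HSP70, between 97.5% and 98.5% for DNAJB, BAG and DNAJC, and 101% for the small heat shock proteins. HSP90 genes supplied 29.8% of the vehicle sum of all members and HSP70 genes 23.2%, so these families weigh most in it. The size of the shift depended on single libraries, since the median log2 fold change of the members was -0.02, with 47 below 0, without GDF9 replicate 1, and -0.09, with 57 below 0, without GDF9 replicate 2. In limma without GDF9 replicate 2, 9 members had an adjusted p under 0.05, against 3 with all libraries, and over all genes tested the counts were 705 and 455.

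Grouped by role, the 14 members that are textbook targets of HSF1 held the called gene Dnaja1, and 12 of the 14 were below 0, against 52.1% of all genes, with a median log2 fold change of -0.07. In 7 of them both GDF9 libraries were below both vehicle libraries, against 23.2% of all genes, and in none were they above, against 22.0%. Of the members with a promoter window, all 4 with a 3-unit heat shock element and 14 of the 18 with a 2-unit element were below 0. So were all 3 with an endoplasmic reticulum stress element, against the same 52.1%, and Dnaja1 was the member among them that was called. None of these shares was adjusted for the level of the genes. Of all genes with a mean of 1000 or more, 61.9% were below 0 and 36.5% were apart with GDF9 lower. Dnaja1, Hspd1, Hsph1, Hsp90aa1, Hsp90ab1, Hspa8 and Bag3 are at that level. Among the 14, the log2 fold changes of Hspa8, Hspb1, Hspe1, Bag3, Dnajb4, Dnajb1 and Hspa1a took both signs over the alternatives.

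Levels of the members, given as normalized counts per kb of exon so that genes can be set side by side, spanned from 2.53 with GDF9 and 2.22 with vehicle to 8439 with GDF9 and 8795 with vehicle. The highest was Hsp90ab1, followed by Hsp90b1 (5192 per kb with GDF9, 5462 with vehicle), Hspa8 (5384 with GDF9, 5437 with vehicle) and Hspa5 (4849 with GDF9, 5040.2 with vehicle). The vehicle levels of Hsp90b1 and Hspa8 lay close together, and their order was the reverse in GDF9-treated cells. The 7 CCT genes, whose products form a ring of fixed composition, lay within a narrow band, from 903 to 1509 per kb with GDF9 and from 958 to 1572 with vehicle. HSP70 genes covered a wide range, down to Hspa1a at 5.11 per kb with GDF9 and Hspa1l at 3.92 with vehicle, and 23 of the 79 members were under 100 per kb with vehicle. The level of Hspa1a is uncertain, since the counting of reads shared with Hspa1b is not given.

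**Figure D3:**
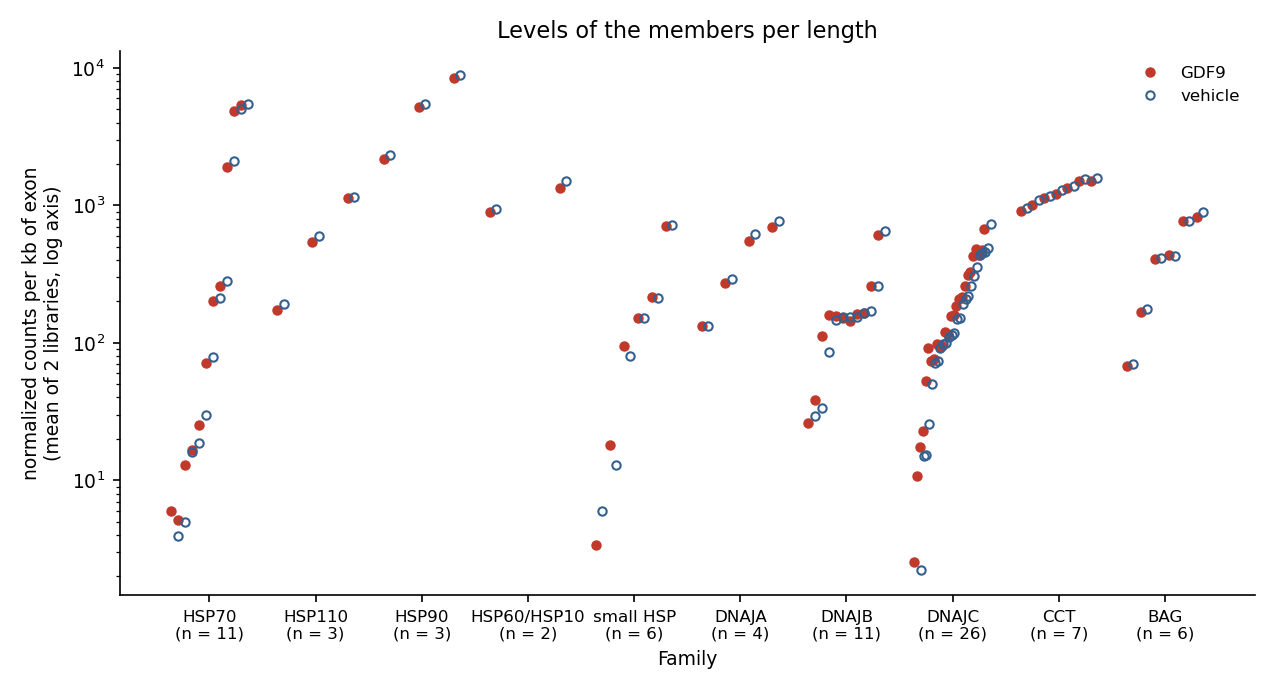
Mean normalized counts per kb of exon (vertical log axis) of each member, by family (horizontal axis), with GDF9 as filled and vehicle as open circles from 2 libraries each. The CCT genes sit between 903 and 1572 per kb, while the HSP70 and DNAJC genes reach from under 10 per kb to far higher levels.

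Genes outside the name rule that work with the members were read from lists of 61 genes, of which 58 were tested. The transcription factors of the heat shock response were measured in both treatments. Hsf1 had 421 and 359 normalized counts with GDF9, against 377 and 383 with vehicle, Hsf2 had 344 and 312, against 323 and 335, and the HSF1-binding protein gene Hsbp1 had 1379.6 and 1529.7, against 1464 and 1489. The groups of all 3 overlapped and none was called.

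Across these lists 1 of 58 genes was called higher and 1 lower, against 2.44% and 0.707% of all genes. Fkbp5, an HSP90 co-chaperone that restrains the glucocorticoid receptor and is itself a glucocorticoid target, fell to 4154 and 4308 normalized counts with GDF9, against 5059 and 5027 with vehicle. The log2 fold change was -0.25 ± 0.04 and the call held over all 13 alternatives (limma, edgeR or DESeq2 adjusted p up to 0.00668). Ubb, a polyubiquitin gene that HSF1 also drives, rose to 1470.3 and 1402 normalized counts with GDF9, against 1199 and 1326 with vehicle (log2 fold change 0.19 ± 0.05, limma adjusted p = 0.0455). Its call did not hold without GDF9 replicate 1 (limma adjusted p = 0.156), without vehicle replicate 1 (limma adjusted p = 0.608), without a filter on low values (limma adjusted p = 0.209) or with DESeq2 (adjusted p = 0.300). Of the 58 genes, 41 were below 0, and the median was -0.02.

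CUT&RUN asked which of these promoters carry H3K27ac, the acetylated histone found at promoters and enhancers in use, and SMAD proteins, the transcription factors that GDF9 receptors activate. A region was counted where peaks of both replicates overlapped, and a gene was assigned a region that reached within 3 kb of any of its transcript starts. In Smad3 PA/PA cells 65 of the 79 members had an H3K27ac region with GDF9 and 62 with vehicle, against 69.3% and 69.4% of the 12531 tested genes that could be placed. In Smad2 HA/+ cells 70 had one with GDF9 and 71 with vehicle, against 80.6% and 78.6%. All 4 sets held 60 members (75.9%), against 62.4% of tested genes, and none of the 4 held 5 members (6.33%), against 15.2% of tested genes. Those 5, named after their values were seen, were Dnajb3, Dnajb5, Dnajc22, Dnajc6 and Hspa2. These shares were not adjusted for the level of the genes.

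The counts of members with SMAD regions differed more between the lines than between the treatments. In Smad2 HA/+ cells the SMAD2 antibody gave regions at 59 members with GDF9 and 62 with vehicle (58.1% and 69.6% of tested genes), the HA antibody at 62 and 69 in the same order (70.9% and 78.8%), and the SMAD3 antibody at 66 and 71 (74.6% and 82.5%). All 6 of these sets held 54 members (68.4%), Dnaja1, Hspd1, Hspa9 and Hsph1 among them, against 48.1% of tested genes. The SMAD shares were not adjusted for the level of the genes or for their H3K27ac. The 4 members in none of these 6 sets, Dnajb13, Dnajc22, Dnajc6 and Hspb7, were also in none of the sets of the other line. Genes in no SMAD set of either line were thus 5.06% of the members, against 10.3% of tested genes. With the HA antibody the order of the treatments depended on the replicate, since replicate 2 alone gave regions at 73 members with GDF9 and 71 with vehicle, and at 10917 and 10798 of the tested genes.

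In Smad3 PA/PA cells far fewer promoters had regions. The SMAD2 antibody gave regions at 10 members with GDF9 and 1 with vehicle, against 11.1% and 0.806% of tested genes, close to the shares of the members, 12.7% and 1.27%. The 10 included Hsp90ab1, Hsp90b1, Hspa5, Hspa8 and Hspa9, and Hspa9 was the member with a region under vehicle as well. The SMAD4 antibody gave regions at 8 members with GDF9 and 10 with vehicle (14.7% of tested genes with GDF9 and 1378 of 12531 with vehicle), with no member in both, against 4.86% of tested genes, and the PA antibody at none in either treatment (0.654% and 0.662%). These counts rest on the overlap of replicates. Replicates 1 and 2 alone gave SMAD2 peaks at 32 and 26 members with GDF9 and at 28 and 4 with vehicle. For SMAD4 they gave peaks at 33 and 40 with GDF9 and at 30 and 33 with vehicle. The SMAD2 list of vehicle replicate 2 held 23278 peaks, against 79075 in vehicle replicate 1. With GDF9 the SMAD2 lists held 81600 and 79018. The short list limits the vehicle overlap. Dnaja1 had no SMAD region in this line. IgG libraries were not analysed here.

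**Figure D4:**
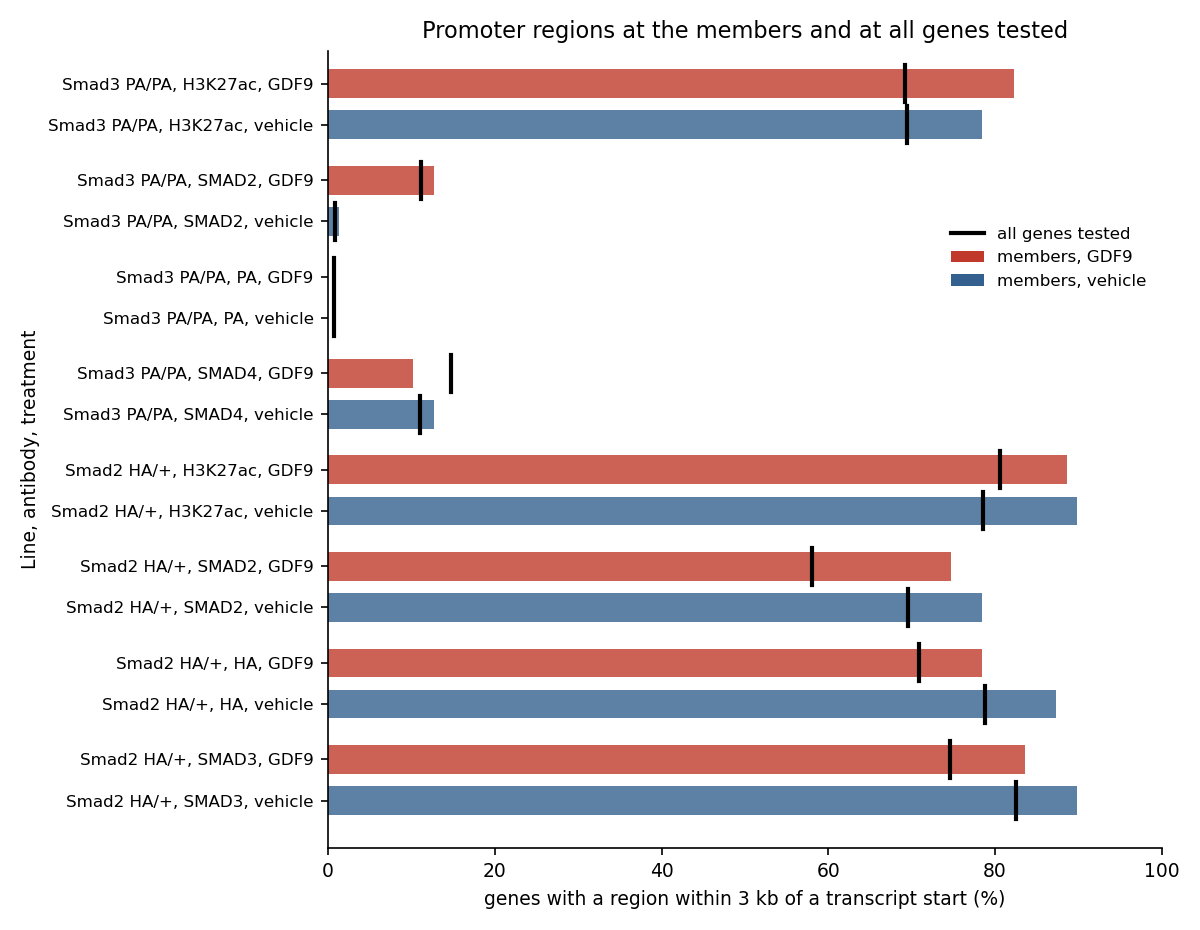
Percent of genes with a region within 3 kb of a transcript start (horizontal axis) for each line, antibody and treatment (rows), with bars for the 79 members and a black line for all tested genes. Bars pass the line for every H3K27ac set and for all SMAD sets of Smad2 HA/+ cells, while the SMAD2, PA and SMAD4 sets of Smad3 PA/PA cells stay at 12.7% or less.

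Promoter H3K27ac signal, the highest spike-in-scaled coverage of peaks reaching the window, was compared between treatments with limma on log2 values in each line. In Smad3 PA/PA cells 62 members were tested and none was called, nor was any of 8120 promoters (0.0%), and no member had an unadjusted p under 0.05. In Smad2 HA/+ cells 67 members were tested and none was called at an adjusted p under 0.05, against 0.391% of 9214 promoters. There 5 members were higher and 2 lower at an unadjusted p under 0.05, against 674 higher and 221 lower of the 9214 promoters. Both GDF9 libraries were above both vehicle libraries for 5 of 62 members and below them for 1 in Smad3 PA/PA cells, against 6.37% and 3.78% of all tested promoters. In Smad2 HA/+ cells the counts were 21 and 13 of 67, against 32.4% and 10.3%, so the share of the members was larger for lower. The median log2 change of the members was 0.03 in Smad3 PA/PA cells and 0.07 in Smad2 HA/+ cells, against 0.04 and 0.07 of all tested promoters, and over the 60 members tested in both lines no difference between the lines was called (lowest limma adjusted p over all 7714 promoters 0.211).

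The promoter of Dnaja1 had an H3K27ac signal of 24.9 and 37.6 with GDF9, against 31.4 and 37.6 with vehicle, in Smad3 PA/PA cells, where the groups overlapped. In Smad2 HA/+ cells it had 48.4 and 46.1 with GDF9, against 45.8 and 37.4 with vehicle, slightly higher in both GDF9 libraries (log2 change 0.19 ± 0.13). The shared promoter of Hspd1 and Hspe1 had 22.6 and 26.9 with GDF9, against 16.9 and 30.4 with vehicle, in Smad3 PA/PA cells, and 41.3 and 38.4 with GDF9, against 36.1 and 38.9 with vehicle, in Smad2 HA/+ cells. Both comparisons overlapped.

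Cct8, named after its values were seen, stood at the low end in Smad2 HA/+ cells, with a signal of 30.5 and 25.6 with GDF9, against 55.2 and 54.7 with vehicle. The groups were well apart (log2 change -0.98 ± 0.12, limma adjusted p = 0.0618), and Cct8 was called without GDF9 replicate 1. In Smad3 PA/PA cells the same promoter had 18.1 and 30.4 with GDF9, against 14.5 and 28.9 with vehicle, and its RNA had 2575 and 2828 normalized counts with GDF9, against 2823 and 2739.6 with vehicle, so neither of these was apart. H3K27ac peaks of Smad2 HA/+ cells were broad, with a median length of 18561 to 29248 bases per library, and only 35 to 38 members had the maximum of a peak inside the window, against 61 to 64 in Smad3 PA/PA cells, where peaks had a median of 2941 to 3288 bases. In Smad3 PA/PA cells replicate 1 was below replicate 2 in both treatments (member medians 19.2 and 29.5 with GDF9, 19.3 and 27.5 with vehicle), and the median standard error of a member was 0.49 there, against 0.11 in Smad2 HA/+ cells.

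**Figure D5:**
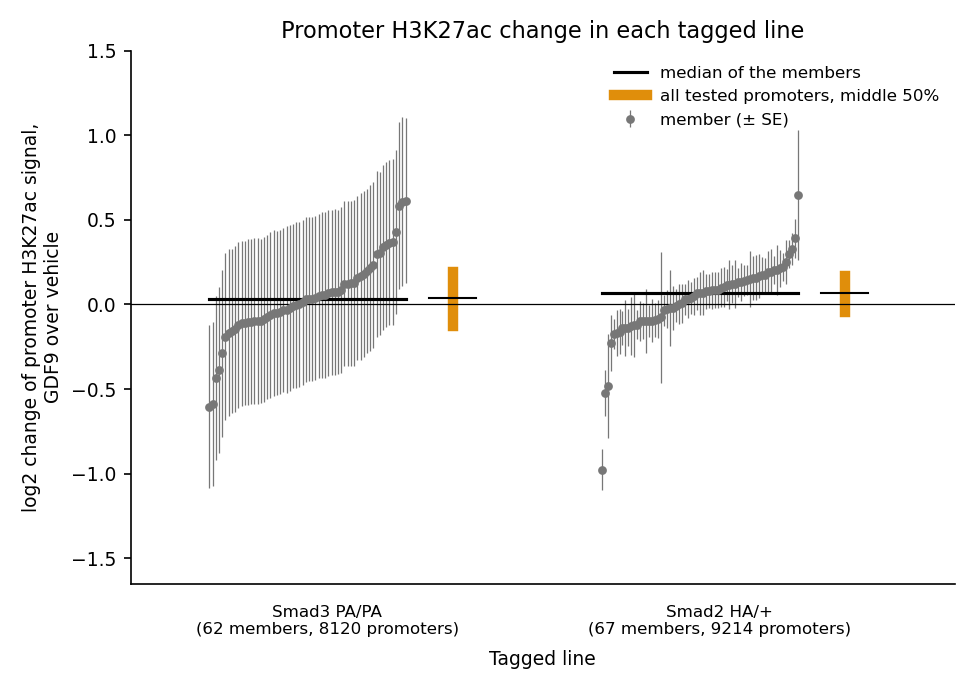
Log2 change of promoter H3K27ac signal, GDF9 over vehicle (vertical axis), of each tested member with its standard error, in Smad3 PA/PA cells (62 members) and Smad2 HA/+ cells (67 members), with the member median as a line and the middle 50% of all tested promoters as an orange bar. The member medians of 0.03 and 0.07 fall inside the orange bars, and Cct8 at -0.98 is the lowest point of Smad2 HA/+ cells.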

How the data were processed

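RNA-seq libraries were poly-A enriched with a strand-specific kit. Per the submitters' processing notes, the authors aligned reads with STAR 2.7.11b to mm10 and counted them with featureCounts 2.1.1. The deposited RNA values are signal, that is, normalized counts, for which the authors scaled gene reads by a single factor per library. Within a library all values are multiples of a common step (tolerance 0.05 reads), which gave the reads for edgeR 4.0.16 and DESeq2 1.42.0 as alternatives. The deposited peak lists hold signal as well, coverage that the authors aligned with Bowtie2, scaled to E. coli spike-in fragments and cut into peaks with SEACR. The table held 1314 entries with no value per library and 3 columns without a header, which were not used, and no column of the authors' own comparisons was used.

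Members were taken by symbol with a mean of at least 10. RNA and H3K27ac values were tested with limma 3.58.1 in R 4.3.3 (empirical Bayes with trend, pseudocount 1 for RNA, no covariate), adjusted over all genes or promoters. A count test had been planned for raw reads, and the log-scale test was used because the table is normalized. Regions and promoters were handled with Python 3.11.15 and bedtools 2.31.1, on RefSeq starts of GRCm38.p6, and 12542 of the 12597 tested genes matched RefSeq. Members, roles and lists were chosen with earlier results of these data known. Genes named with values are the called ones, in each family the highest per kb and the 2 largest changes, the 14 HSF1 targets, Hspa5, Hsp90b1 and Hspa9, and of the other lists the called genes, Hsf1, Hsf2, Hsbp1 and Tcp1. Others were named after their values were seen. Scripts were tested on simulated data. Settings tried were other scalings, filters, pseudocounts and tools, a replicate block, leaving out each library, other windows, overlaps and peak measures. Reads of 8827825 to 11416005 per library limit precision for members of few counts. Protein sequences were not used here.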

Additional observations from a re-analysis of the deposited data

How the results depend on the processing

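No member was called higher in any of the 13 alternatives for RNA. The count of members called lower was 1, and became 0 with DESeq2 and without a filter on low values, and 0 to 3 when each library was left out. The median log2 fold change of the members was -0.05, and -0.088 to -0.018 when each library was left out. Of the related genes, 1 was called higher, and 0 with DESeq2, 0 without a filter and 0 to 1 when each library was left out, while 1 was called lower, and 2 with a mean of at least 50 and 2 with the replicate block. For promoter H3K27ac in Smad2 HA/+ cells, no member was called, against 2 (Cct8 and Hspb7, both lower) with summed total signal and 0 to 1 when each library was left out, and the member median of 0.07 became 0.026 after median-centring and -0.071 with summed total signal. In Smad3 PA/PA cells no member was called in any alternative, and the member median lay between -0.28 and 0.31 when each library was left out. The cause of these differences was not tested. With a library left out, its lone partner is assumed to vary like the other group.

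For the RNA libraries, the correlation of same-numbered deviations was 0.01 over 12597 genes, so it showed no pairing by replicate number. With the replicate block the calls were 0 members higher and 1 lower (Dnaja1), the count over all genes was 535, against 396, and it moved no other call of a member. For H3K27ac the correlations were -0.01 in Smad3 PA/PA and -0.03 in Smad2 HA/+ cells. Such a correlation cannot see a shift shared by all genes or promoters, so it does not decide whether the RNA or H3K27ac replicates were paired. In Smad3 PA/PA cells the promoter medians were 18.1 and 26.9 with GDF9, and 19.3 and 24.6 with vehicle, replicate 1 first. The main fit, without a block, leaves this shift in the error. DESeq2 called 133 genes of all, no filter 187, leaving out vehicle replicate 1 215 and edgeR 406. At 2 libraries per group, differences of members with few counts, such as Hspa1a and Hspb7, were not detectable unless large.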
